A study of Mus musculus with 4 samples.

Results

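Opposite-strand transcripts are genes named after a gene on the other DNA strand, with the letters os added to that gene's symbol. They were followed in B16 cells, a mouse melanoma cell line, after 4 h with EM-plasma, set beside control cells. The members were the gene symbols of the count table that end in lower-case os and held at least 40 reads summed over the 4 libraries, leaving out Fos, Mos, Icos and Epb41l4aos. This gave 48 symbols among 53465 gene rows. In 6 of the 48 (Selenos, Mios, Nrros, Uros, Mocos and Otos) the letters belong to another name, and these were set aside. The other 42 were described here as opposite-strand transcripts. The annotation went against the label of a long noncoding transcript for 7 of the 42, which it lists as protein coding: Wdr83os, Slc7a6os, Zbtb8os, Cebpzos, Brd3os, Ccpg1os and Cdiptos. Of the 35 noncoding members 25 were annotated as antisense, 5 as processed transcript, 4 as lincRNA (long intergenic noncoding RNA) and 1 as a bidirectional promoter RNA. The sense gene, whose symbol is that of the member without os, was found for 40 of the 42, and no row matched for Zbtb8os and Snhg7os.

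The series holds 2 libraries of cells given EM-plasma, which by the labels is plasma that had been treated with exosome-mimetic nanovesicles (EMs), and 2 control libraries of the same cell line. The origin of the plasma, what the control cells received and the time of their collection are not given in the labels. Nor do the labels state separate cultures, so the p-values weigh a difference against the spread of these libraries alone, and that spread may be technical. All 4 libraries were made from poly(A) RNA with a stranded kit, so opposite-strand transcripts without a poly(A) tail were not measured.

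Many mammalian promoters start transcription in both directions. A protein-coding RNA leaves on one strand and a noncoding RNA on the other, so the starts of such a pair lie close together and face away from each other. Noncoding transcripts of this kind are usually short-lived, since early polyadenylation sites and the nuclear RNA exosome end and degrade many of them, and they tend to be less abundant than the coding RNA. Other antisense RNAs start within or downstream of their sense gene and overlap its exons or introns. Some opposite-strand symbols name ordinary protein-coding genes that only share a neighbourhood with the gene they are named after.

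The start regions of 4 pairs are printed as a description, and their bearing on the results was not tested. Brip1os and Zfp335os are the members that passed the test. Map2k3os and Cep83os, chosen after their values were seen, also start within 1000 bases of their sense gene. Each window runs from 250 bases before to 50 bases after a RefSeq gene start (GRCm38.p6), 5′ to 3′ on the strand of the gene it is named for. Positions are counted from 1 at the 5′ end. Capitals mark the GC box GGGCGG, a binding sequence of SP family factors, or CCGCCC where the box lies on the other strand. RefSeq's table gave no window for Brip1os, and that of Brip1 is shown because it holds the Brip1os start as well.

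The Brip1 window is at chr11:86201144-86201443 on the minus strand, and the annotated start of Brip1os on the plus strand is at its base 74. It held 57% G or C, 21 CpG sites, 3 GC boxes, 3 CCAAT boxes and 1 ETS core.
Brip1: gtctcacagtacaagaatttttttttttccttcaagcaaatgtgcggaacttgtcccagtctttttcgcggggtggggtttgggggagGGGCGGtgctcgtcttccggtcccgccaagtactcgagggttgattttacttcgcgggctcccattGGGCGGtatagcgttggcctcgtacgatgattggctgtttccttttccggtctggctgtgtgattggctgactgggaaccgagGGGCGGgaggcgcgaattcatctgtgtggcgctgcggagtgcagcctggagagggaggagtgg

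The Zfp335os window is at chr2:164911183-164911482 on the plus strand, with the GENCODE start of Zfp335os at its base 172. The annotated start of Zfp335, at chr2:164911757, lies outside this window. The window held 74.7% G or C, 30 CpG sites and 0 GC boxes.
Zfp335os: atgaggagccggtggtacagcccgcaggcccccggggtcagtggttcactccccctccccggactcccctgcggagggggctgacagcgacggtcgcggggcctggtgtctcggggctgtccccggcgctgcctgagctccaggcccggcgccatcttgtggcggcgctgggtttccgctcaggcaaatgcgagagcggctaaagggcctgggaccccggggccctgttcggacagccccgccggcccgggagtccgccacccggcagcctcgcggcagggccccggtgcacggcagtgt

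The Map2k3os window is at chr11:60931818-60932117 on the minus strand, where the RefSeq and GENCODE starts are the same base. It held 67.7% G or C, 30 CpG sites and 4 GC boxes.
Map2k3os: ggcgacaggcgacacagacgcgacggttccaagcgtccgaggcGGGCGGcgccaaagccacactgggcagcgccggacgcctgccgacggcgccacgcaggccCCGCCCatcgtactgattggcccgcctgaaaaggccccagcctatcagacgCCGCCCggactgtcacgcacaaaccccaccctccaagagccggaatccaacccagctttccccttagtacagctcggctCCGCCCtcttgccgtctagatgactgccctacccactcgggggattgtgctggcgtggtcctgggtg

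The Cep83os window is at chr10:94688564-94688863 on the minus strand, with the GENCODE start of Cep83os at its base 288. It held 76.7% G or C, 46 CpG sites and 4 GC boxes.
Cep83os: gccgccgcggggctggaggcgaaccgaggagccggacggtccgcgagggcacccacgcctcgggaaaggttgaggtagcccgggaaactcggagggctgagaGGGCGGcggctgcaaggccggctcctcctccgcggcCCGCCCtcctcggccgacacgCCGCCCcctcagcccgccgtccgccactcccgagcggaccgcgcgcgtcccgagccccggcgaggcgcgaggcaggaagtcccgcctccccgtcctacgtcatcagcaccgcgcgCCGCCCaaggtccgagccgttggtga

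These 4 windows lay above the median of all 32851 RefSeq windows, which was 52.7% G or C with 7 CpG sites. RefSeq windows were found for 30 of the 42 members, 42 windows in all, with medians of 57.3% G or C and 14 CpG sites. The 29 windows of 20 members that start head-to-head with their sense gene had medians of 60% and 23 CpG sites. Not all of these windows lie at the start that faces the sense gene. Junos has windows farther along, as at chr4:95147236-95147535, and the Dmrta2os windows, as at chr4:109979561-109979860, lie inside Dmrta2. Each motif was searched on both strands, and none of the 4 contains another. The shares are of windows and not of members, so members with several windows, such as Junos, Dmrta2os and Snhg7os, count several times. GGGCGG was in 47.6% of the member windows and 35.7% of all windows. CCAAT, the CCAAT box, was in 31.0% of the member windows and 37.4% of all, and TATAAA, the TATA box, in 11.9% of the member windows and 13.6% of all. CCGGAAG, the core bound by ETS factors, was in 16.7% of the member windows and 8.86% of all. The printed windows held 0 matches to TATAAA. A match is a description of the letters and not a bound site.

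Library totals ran from 46295133 to 46557637 reads in EM-plasma cells and from 47664388 to 49367932 in control cells. The 9 melanocytic marker genes summed to 11753 and 11945 CPM in EM-plasma cells and 11580 and 11643 CPM in control cells, where CPM is the read count scaled to library size with TMM factors. Fibroblast markers summed to between 27.6 and 30.3 CPM over the libraries, leukocyte markers to at most 1.74 CPM, and endothelial, keratinocyte, red cell and platelet markers to at most 0.305 CPM. Of these marker genes 0 passed the test. The values are of bulk RNA, in which fewer cells of a type and less RNA per cell cannot be told apart.

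The members differed widely in level, and Brip1os stood above the rest. The 35 noncoding members together made 191 and 188 CPM in EM-plasma cells and 197 and 204 CPM in control cells. Brip1os alone gave 59.6% and 60.2% of those reads in EM-plasma cells and 62.2% and 66.5% in control cells. All 42 members together made 328 and 327 CPM in EM-plasma cells and 333 and 343 CPM in control cells. That is 0.0330% and 0.0326% of all reads in EM-plasma cells and 0.0332% and 0.0342% in control cells. The median member held 211.5 reads over the 4 libraries. Of the 42, 12 held fewer than 100 reads.

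**Figure D1:**
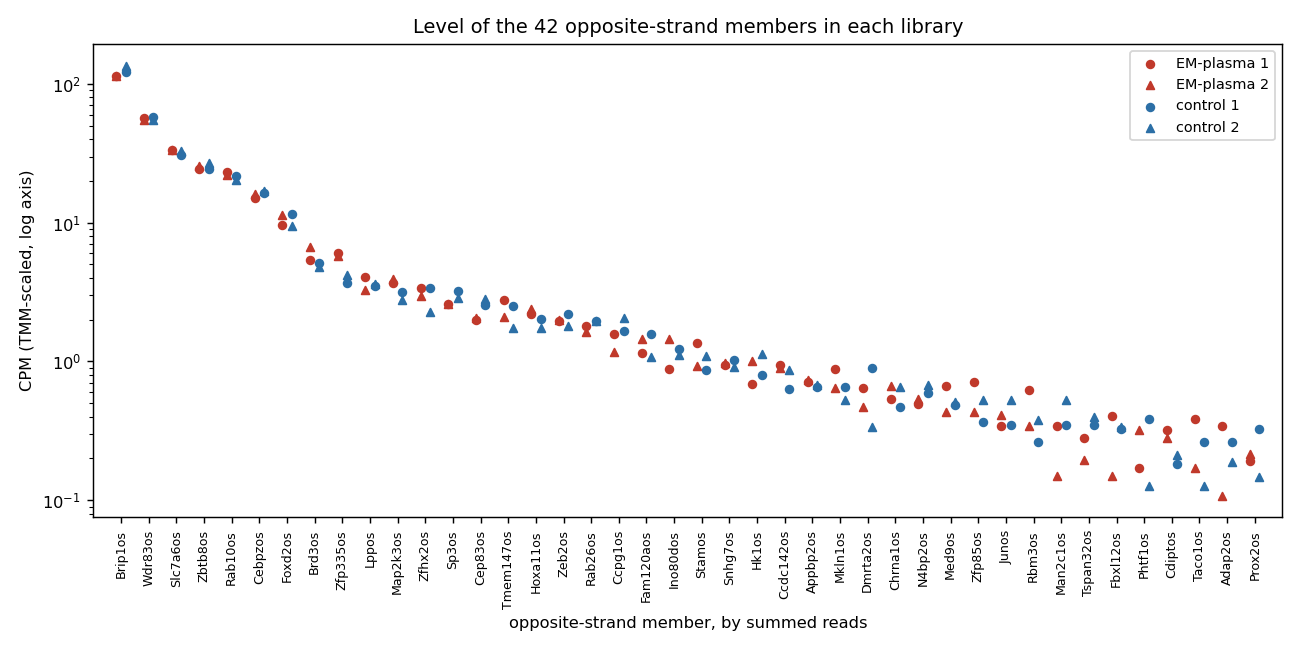
Level of each of the 42 members in the 4 libraries, as TMM-scaled CPM on a log axis, ordered by summed reads. Brip1os lies between 113 and 136 CPM, while members at the right end, such as Prox2os and Adap2os, lie below 0.35 CPM and scatter more between libraries of 1 group.

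Most members lie close to the start of a coding gene. Of the 40 pairs 26 were head-to-head, with starts on opposite strands that face away from each other no more than 1000 bases apart or with 5′ ends that overlap. In 10 of the 26 a gap separated the starts and in 16 the transcripts overlapped, with a median distance between starts of 312.5 bases (38 to 2987). Another 10 members overlapped their sense gene otherwise, 3 faced it tail-to-tail, and Chrna1os started 4512 bases away from Chrna1, the muscle acetylcholine receptor subunit. For some members the nearest coding start on the other strand was not that of the gene they are named after. Slc7a6os started 1 base from the start of Prmt7, an arginine methyltransferase gene, and Rab26os 310 bases from that of Traf7, a ubiquitin ligase gene. With any coding gene counted, 27 of 42 members started within 1000 bases of one.

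Opposite-strand exons matter for these counts, because the sources used here do not give the strand setting of the counting. Where exons of both strands overlap, it is not known whether reads of the pair were kept apart. Of the 42 members 12 shared no exonic base with a gene on the other strand, and 5 shared more than 50% of their exonic bases. The highest share was 73.1%, in Zfhx2os, which overlaps Zfhx2, a zinc finger homeobox gene, over 3255 exonic bases. Of the exonic bases of Zfhx2os 63.0% also lie in exons of another gene on its own strand.

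Per base of exon, most members were far below their sense gene. TPM, which divides reads by merged exon length, was compared in the 36 pairs whose sense gene held at least 40 reads. The median member stood at 6.57% of its sense gene. With noncoding members alone it was 5.08% in 30 pairs, and the medians by orientation include protein-coding members. The median was 4.49% in 25 head-to-head pairs (0.265% to 879%), 20.1% in 8 overlapping antisense pairs (1.31% to 629%) and 16.8% in 3 tail-to-tail pairs (3.97% to 34.3%). The lowest were Cdiptos at 0.265% of Cdipt, the phosphatidylinositol synthase gene, Fam120aos at 0.382% of Fam120a, Rbm3os at 0.634% of Rbm3, a cold-inducible RNA-binding protein gene, and Junos at 0.691% of Jun. These percentages are means over the 4 libraries.

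In 6 pairs the member was above its sense gene per base of exon in every library. Wdr83os, which encodes a subunit of an endoplasmic reticulum chaperone for membrane proteins, stood at 879% of Wdr83, a scaffold protein gene. Ccdc142os stood at 629% of Ccdc142, Foxd2os at 461% of Foxd2, a forkhead factor gene, and Zfhx2os at 326% of Zfhx2. Ccpg1os was at 259% of Ccpg1 and Brip1os at 159% of Brip1. The sense gene held only 77 reads in all for Ccdc142os, 356 for Foxd2os, 372 for Ccpg1os and 731 for Zfhx2os. In Zfhx2os 73.1%, in Wdr83os 52.3% and in Ccdc142os 26.5% of the exonic bases lie in exons of the sense gene (and 55.7% of Ccdc142os in Gm42688). How reads of those bases were counted depends on the strand setting, which is not known. Foxd2os and Ccpg1os share no exonic base with their sense genes. Rab26 and Chrna1 had 0 reads in all 4 libraries. Rab26os had 84 and 76 reads in EM-plasma cells and 96 and 92 in control cells. Chrna1os had 25 and 31 reads in EM-plasma cells and 23 and 31 in control cells. The groups of Chrna1os overlapped, and Rab26os was lower in both EM-plasma libraries without passing the test (log2 fold change -0.18, adjusted p = 0.744).

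**Figure D2:**
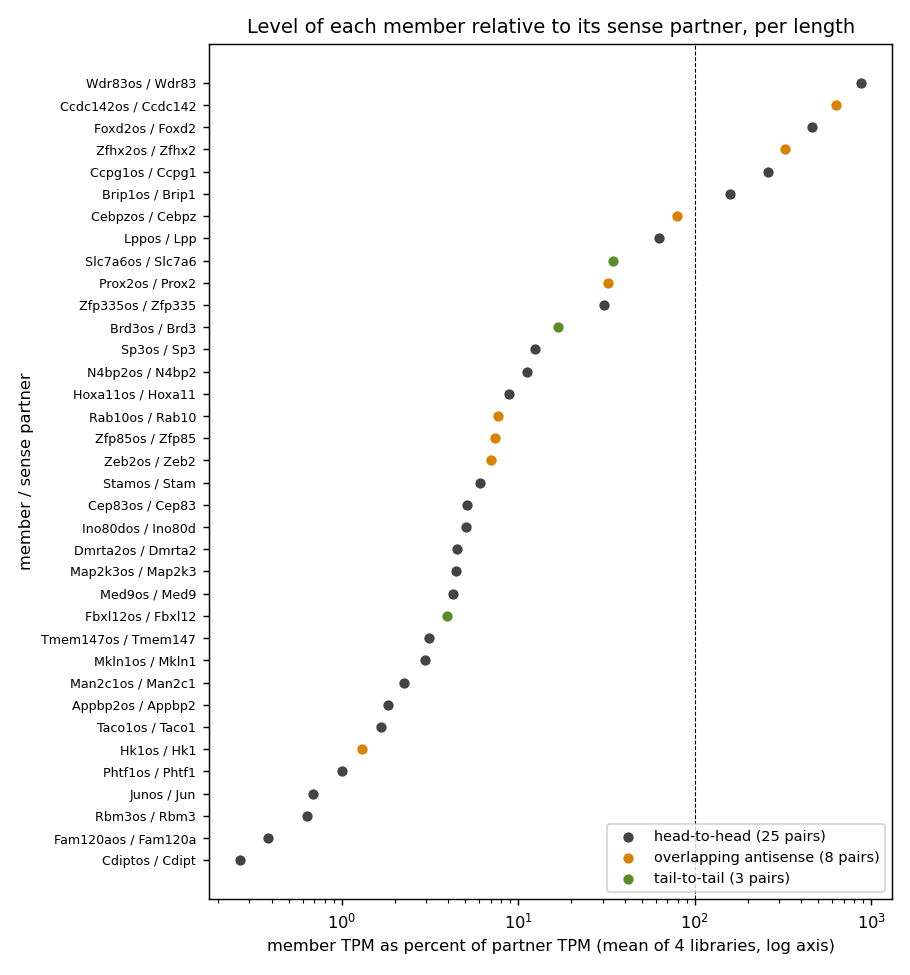
Level of the member as a percentage of its sense gene, both in TPM, as the mean of 4 libraries on a log axis, for 36 pairs coloured by orientation, with a dashed line at 100%. The 6 members above the line are Wdr83os, Ccdc142os, Foxd2os, Zfhx2os, Ccpg1os and Brip1os, and the median pair lies at 6.57%.

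Across the members 1 was higher and 1 was lower in EM-plasma cells. All 42 passed the filter on low counts and were tested, in a fit over 13664 genes with edgeR's quasi-likelihood test, whose p-values were adjusted by Benjamini-Hochberg. Zfp335os was called higher, where 3.34% of all tested genes were, and Brip1os was called lower, where 2.88% were. The 2 calls make 4.76% of the members, against 6.21% of all tested genes, so the share lies near that background. Each of the 2 calls ended in some of the fits with a library left out, which leave 1 library in that group. Fewer of all tested genes were called in those fits too. Both called members are among the 35 noncoding ones (5.71%). Of the 7 protein-coding members 0 passed, by edgeR or by DESeq2, beside 6.57% of all tested protein-coding genes by edgeR. An unadjusted p below 0.05 was found for 0 of the 7, beside 2392 of the 11733 tested protein-coding genes. With only 7 members nothing is read from these counts. The members' median log2 fold change of EM-plasma over control was -0.011, beside -0.0027 over all tested genes, with 19 members above 0 and 23 below, from -0.81 to 0.61. At an unadjusted p below 0.05 there were 2 of the 42 members, those that were called, beside 2671 of all 13664 genes. In 18 of the 42 (42.9%) both EM-plasma libraries lay on 1 side of both control libraries, beside 49.1% of all tested genes.

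Read depth bounds what could be called. Of the 27 members with fewer than 400 reads 0 were called, and the call rate of all tested genes at that depth was 2.27% between 40 and 100 reads and 2.69% between 100 and 400 reads. The median standard error of the log2 fold change was 0.53 for the 12 members with fewer than 100 reads and 0.31 for the 15 with 100 to 400 reads. It was 0.19 for the 7 with 400 to 1000 reads and 0.082 for the 6 with 1000 to 10000 reads. For the 2 most abundant members, Brip1os and Wdr83os, it was 0.056. At 400 reads and above 2 of 15 members were called, where 6.92% to 7.23% of all tested genes were called in the bands of that depth. Changes of the low members were not detectable at this depth unless large.

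**Figure D3:**
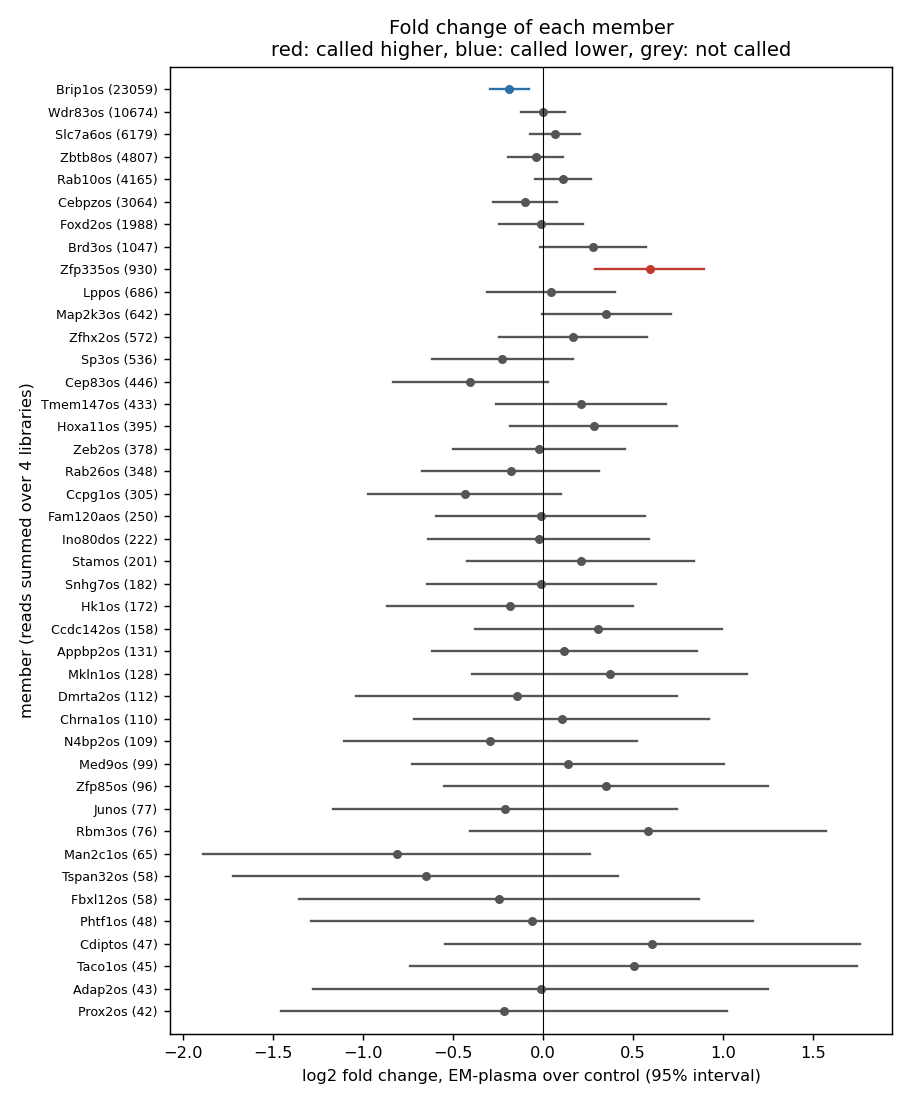
Log2 fold change of EM-plasma over control with its 95% interval for each of the 42 members, ordered by summed reads, which stand in parentheses. Only the intervals of Brip1os (-0.30 to -0.079) and Zfp335os (0.29 to 0.89) exclude 0, and the intervals widen toward the members with few reads.

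Brip1os was lower in EM-plasma cells, and so was Brip1. Brip1 encodes the FANCJ helicase, which acts in the repair of DNA cross-links. Brip1os (ENSMUSG00000085208, chromosome 11, 86201370 to 86304443, plus strand, GRCm38, 7 merged exons) starts 177 bases from Brip1 (ENSMUSG00000034329, 86058138 to 86201193, minus strand), and no exon of the pair overlaps. Brip1os had 5302 and 5271 reads in EM-plasma cells, against 6045 and 6441 in control cells. That is 113.7 and 113.2 CPM in EM-plasma cells and 122.8 and 135.9 CPM in control cells, so the groups did not overlap and the control libraries differed more between themselves. The means were 113 ± 0.345 CPM in EM-plasma cells and 129 ± 9.25 CPM in control cells (SD, n = 2 each). Brip1os was 1.14-fold lower (log2 fold change -0.19, SE 0.053, adjusted p = 0.0308).

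Brip1 had 81.5 and 80.9 CPM in EM-plasma cells, against 88.8 and 100.1 CPM in control cells. Its groups did not overlap either, and the same control library, control 2, was the highest in both genes. Brip1 was 1.16-fold lower (log2 fold change -0.22, SE 0.058, adjusted p = 0.0214). The difference of the log2 fold changes, Brip1os minus Brip1, was 0.029 (95% interval -0.13 to 0.19, treating the 2 genes as independent). Within a library Brip1os held 139.6% and 139.9% of the reads of Brip1 in EM-plasma cells and 138.2% and 135.8% in control cells, a ratio that does not depend on library scaling. Of the exonic bases of Brip1os 20.2% lie in exons of other genes on the minus strand, 512 bases in Ints2, an Integrator subunit gene (log2 fold change -0.061, adjusted p = 0.570), and 800 bases in Med13, a Mediator subunit gene (-0.085, adjusted p = 0.311). The call of Brip1os ended without EM-plasma 1 (adjusted p = 0.393), EM-plasma 2 (0.407) or control 2 (0.251), and without control 2 the log2 fold change was -0.11. Brip1 lost its call in the same 3 fits, with -0.13 without control 2.

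Zfp335os was higher in EM-plasma cells and had the largest fold change among members with at least 100 reads. Zfp335 encodes a zinc finger transcription factor. Zfp335os (ENSMUSG00000085436, chromosome 2, 164911354 to 164919953, plus strand, 3 merged exons) overlaps the 5′ end of Zfp335 (ENSMUSG00000039834, 164891882 to 164911757, minus strand), and 234 of its 1273 exonic bases (18.4%) lie in Zfp335 exons. It had 284 and 267 reads in EM-plasma cells, against 181 and 198 in control cells. Both EM-plasma libraries were above both control libraries, with means of 5.91 ± 0.252 CPM in EM-plasma cells and 3.93 ± 0.354 CPM in control cells (SD, n = 2 each). Zfp335os was 1.51-fold higher (log2 fold change 0.59, SE 0.15, adjusted p = 0.0130).

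Zfp335 itself did not pass the test. It had 62.2 and 63.8 CPM in EM-plasma cells, against 59.3 and 53.4 CPM in control cells (log2 fold change 0.16, 95% interval 0.035 to 0.29, adjusted p = 0.126). Zfp335os exceeded it in log2 fold change by 0.43 (95% interval 0.10 to 0.76). That interval treats the 2 genes as independent and is not adjusted for the 36 pairs compared. The pair is described because Zfp335os was called. Per base of exon Zfp335os stood at 36.5% and 33.5% of Zfp335 in EM-plasma cells and at 23.1% and 29.1% in control cells. This ratio comes from the same counts and was higher in both EM-plasma libraries. With DESeq2 the call of Zfp335os ended (adjusted p = 0.0563), and it ended without EM-plasma 1 (0.116), control 1 (0.0963) or control 2 (0.136).

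At Map2k3 the coding gene was called and the opposite-strand transcript was not. Map2k3 encodes MKK3, a kinase that activates the stress kinase p38. Its start and that of Map2k3os (ENSMUSG00000042549, chromosome 11, 60920917 to 60931867, minus strand) are 166 bases apart, with no exonic overlap. Map2k3os had 172 and 182 reads in EM-plasma cells, against 156 and 132 in control cells, and Map2k3 had 206 and 213 CPM in EM-plasma cells, against 187 and 177 CPM in control cells. Neither gene's groups overlapped. The log2 fold change was 0.35 for Map2k3os (95% interval -0.009 to 0.71, adjusted p = 0.270) and 0.21 for Map2k3 (SE 0.047, adjusted p = 0.00655), and the difference of 0.14 had an interval from -0.23 to 0.52. The call of Map2k3 held without control 1 (adjusted p = 0.0359) and ended without any other library (0.132 to 0.377).

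Cep83os, the member annotated as a bidirectional promoter RNA, differed from its sense gene in the other direction. Cep83 encodes a protein of the distal appendages of the centriole, which anchor cilia. The starts of Cep83os (ENSMUSG00000097164, chromosome 10, 94671025 to 94688576, minus strand) and Cep83 lie 78 bases apart. Of its exonic bases 5.24% lie in Gm49167, a gene with 5 reads. Cep83os had 92 and 96 reads in EM-plasma cells, against 125 and 133 in control cells, with no overlap between the groups (log2 fold change -0.40, 95% interval -0.84 to 0.027, adjusted p = 0.294). Cep83 had 2331 and 2459 reads in EM-plasma cells and 2486 and 2327 in control cells, with CPM groups that overlapped (log2 fold change 0.046, adjusted p = 0.741). The difference, Cep83os minus Cep83, was -0.45 with a 95% interval from -0.90 to -0.002, which is not adjusted for the 36 pairs compared.

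**Figure D4:**
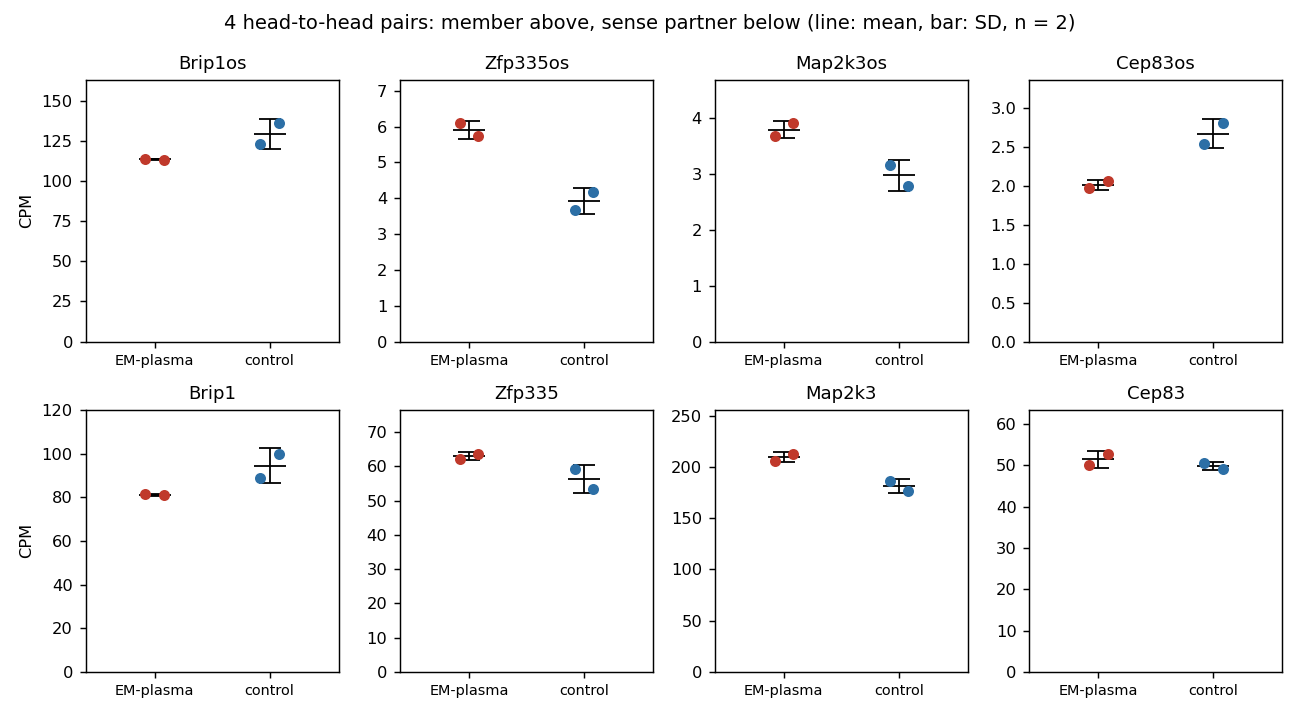
CPM per library of Brip1os, Zfp335os, Map2k3os and Cep83os (upper panels) and of their sense genes (lower panels), EM-plasma left and control right, with a line at the mean and a bar for the SD (n = 2), on axes that start at 0. Brip1os and Brip1 are lower in EM-plasma cells at 113 against 129 CPM and 81.2 against 94.5 CPM, while Zfp335os is higher at 5.91 against 3.93 CPM.

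Of the 36 sense genes tested 5 were called higher and 1 lower, which is 16.7%, beside 6.21% of all tested genes and 7.18% of those with at least 10000 reads. An unadjusted p below 0.05 was found for 11 of the 36, beside 2671 of all 13664. The 5 that were higher are Map2k3, Hk1, Hoxa11, Fbxl12 and Zfhx2, and the 1 that was lower is Brip1. Brip1 was the sense gene whose own opposite-strand transcript was called too. The sense genes are sequenced more deeply than the members, with a median of 11058.5 reads for the 36, against 211.5 for the members. Every call among the sense genes ended in some of the fits with a library left out, which leave 1 library in that group. In those fits fewer of all tested genes were called as well. The sense genes Rab26, Chrna1, Adap2 and Tspan32 held fewer than 40 reads in all and were not tested. Sense genes of members outside the naming rule are given because they were called, and so were chosen after their values were seen.

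Hk1 encodes hexokinase 1, which starts glycolysis, and had 414 and 409 CPM in EM-plasma cells, against 377 and 343 CPM in control cells (log2 fold change 0.19, adjusted p = 0.00920). Its opposite-strand transcript Hk1os had 32 and 47 reads in EM-plasma cells and 39 and 54 in control cells, with overlapping groups (-0.18, adjusted p = 0.822). Hoxa11, a homeobox factor gene of limb and urogenital patterning, had 19.0 and 19.9 CPM in EM-plasma cells and 15.6 and 15.9 CPM in control cells (0.31, adjusted p = 0.0226). Hoxa11os lay above both control libraries as well without passing the test, at 2.19 and 2.38 CPM in EM-plasma cells and 2.01 and 1.75 CPM in control cells (0.28, adjusted p = 0.543). Hoxa11os shares 800 exonic bases with Hoxa11. Fbxl12, the gene of an F-box protein of ubiquitin ligases, had 9.14 and 8.42 CPM in EM-plasma cells and 6.78 and 6.37 CPM in control cells (0.42, adjusted p = 0.0329), and Fbxl12os was at -0.25 (adjusted p = 0.860). Zfhx2 had 4.89 and 4.36 CPM in EM-plasma cells and 3.19 and 3.02 CPM in control cells (0.58, adjusted p = 0.0337), while Zfhx2os, which shares most of its exons with it, had 3.39 and 2.99 CPM in EM-plasma cells and 3.39 and 2.28 CPM in control cells (0.17, adjusted p = 0.708). The calls of Hoxa11, Fbxl12 and Zfhx2 ended with DESeq2 (adjusted p = 0.0741, 0.121 and 0.124) and whichever library was left out (0.0657 to 0.353 over the 3 genes). Hk1 was called with DESeq2 too (adjusted p = 0.00630) and without control 1 (0.0229), and its call ended without EM-plasma 1 (0.310), EM-plasma 2 (0.218) or control 2 (0.148).

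Over the 36 pairs with both genes tested, the log2 fold changes of member and sense gene had the same sign in 16, and in 11 of the 25 head-to-head pairs. Pearson's r across these pairs was 0.067 and Spearman's rho 0.098, given as a description of genes that share the same 4 libraries, with member values of very different depth. The 95% interval of the difference between member and sense gene excluded 0 in 3 of 36 pairs, Zfp335os, Brd3os and Cep83os, without adjustment for the number of pairs. Brd3os, singled out after its value was seen, had 5.38 and 6.72 CPM in EM-plasma cells and 5.16 and 4.83 CPM in control cells (log2 fold change 0.28, adjusted p = 0.291). Brd3, a bromodomain protein gene that it faces tail-to-tail, was at -0.060 (adjusted p = 0.550), and the difference was 0.34 (0.027 to 0.65).

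**Figure D5:**
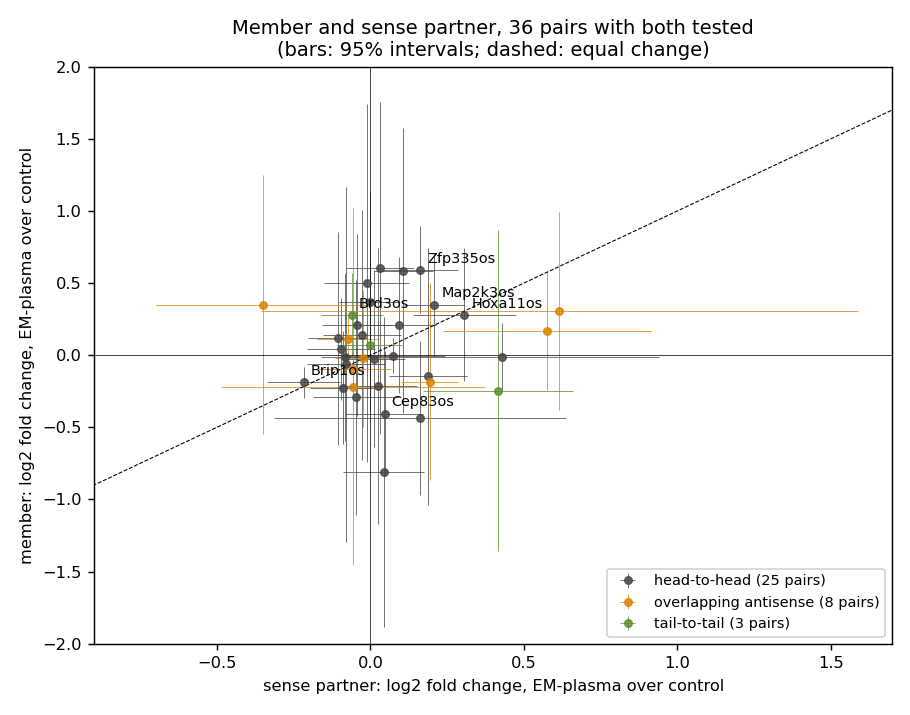
Log2 fold change of EM-plasma over control of each member (vertical axis) against that of its sense gene (horizontal axis) for 36 pairs coloured by orientation, with 95% intervals as bars and a dashed line of equal change. Brip1os lies near the line at -0.19 and -0.22, Zfp335os lies above it at 0.59 and 0.16, and the vertical bars are longer than the horizontal ones for most pairs.

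The abundant members other than Brip1os did not pass the test. The interval of Wdr83os excludes a log2 fold change as large in size as that of Brip1os (-0.19). Those of Slc7a6os, Zbtb8os, Rab10os, Cebpzos and Foxd2os (-0.24 to 0.22) hold a change of that size in at least 1 direction. Wdr83os had 57.2 and 55.2 CPM in EM-plasma cells and 57.4 and 55.1 CPM in control cells, a log2 fold change of -0.003 with a 95% interval from -0.12 to 0.12 (adjusted p = 0.989). Wdr83 had 17.7 and 18.2 CPM in EM-plasma cells and 17.4 and 16.7 CPM in control cells (0.074, adjusted p = 0.680). Slc7a6os, whose yeast relative Iwr1 helps RNA polymerase II into the nucleus, had 33.4 and 33.3 CPM in EM-plasma cells and 30.7 and 33.0 CPM in control cells (0.068, interval -0.070 to 0.21, adjusted p = 0.633). Its sense gene Slc7a6, an amino acid transporter gene, averaged 102.9 ± 1.86 CPM in EM-plasma cells and 103 ± 2.02 CPM in control cells (adjusted p = 0.994). Both EM-plasma libraries of Slc7a6os lay above both control libraries, by a margin smaller than the gap between the controls, and the groups of Wdr83os and Slc7a6 overlapped.

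Zbtb8os encodes archease, a cofactor of the tRNA ligase. It had 24.3 and 25.6 CPM in EM-plasma cells and 24.6 and 26.8 CPM in control cells (log2 fold change -0.041, 95% interval -0.19 to 0.11, adjusted p = 0.821). Rab10os, the second most abundant noncoding member, overlaps the 3′ end of Rab10, a GTPase gene of vesicle transport. It had 23.4 and 22.2 CPM in EM-plasma cells and 21.8 and 20.4 CPM in control cells (0.11, interval -0.046 to 0.27, adjusted p = 0.462), and Rab10 was at -0.073 (adjusted p = 0.444). Cebpzos had 15.0 and 16.2 CPM in EM-plasma cells and 16.4 and 17.0 CPM in control cells (-0.098, interval -0.28 to 0.079, adjusted p = 0.582), and Cebpz, its sense gene, was at -0.057 (adjusted p = 0.659). The EM-plasma libraries of Rab10os lay above both control libraries and those of Cebpzos below, while the groups of Zbtb8os overlapped. Foxd2os, next in level, had 9.57 and 11.3 CPM in EM-plasma cells and 11.6 and 9.45 CPM in control cells, with overlapping groups (-0.012, adjusted p = 0.970).

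The largest changes in size other than that of Zfp335os were in members with few reads, and none of them passed the test. Man2c1os, opposite Man2c1, a cytosolic mannosidase gene, had 16 and 7 reads in EM-plasma cells and 17 and 25 in control cells (log2 fold change -0.81, 95% interval -1.89 to 0.26, adjusted p = 0.424). Tspan32os, opposite a tetraspanin gene, had 13 and 9 reads in EM-plasma cells and 17 and 19 in control cells (-0.65, interval -1.72 to 0.42, adjusted p = 0.541). Cdiptos had 15 and 13 reads in EM-plasma cells and 9 and 10 in control cells (0.61, interval -0.55 to 1.76, adjusted p = 0.605). The groups of these 3 did not overlap, yet their intervals span 0 widely. Man2c1 was at 0.043 (adjusted p = 0.774) and Cdipt at 0.032 (adjusted p = 0.813).

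At the read minimum, the members just inside were Prox2os with 42 reads in all, Adap2os with 43, Taco1os with 45 and Cdiptos with 47. Prox2os had 9 and 10 reads in EM-plasma cells and 16 and 7 in control cells, Adap2os 16 and 5 in EM-plasma cells and 13 and 9 in control cells, and Taco1os 18 and 8 in EM-plasma cells and 13 and 6 in control cells. The groups of these 3 overlapped. Their sense genes Prox2, a homeobox gene, and Taco1, a gene for a mitochondrial translation activator, were at -0.057 (adjusted p = 0.920) and -0.012 (adjusted p = 0.947), and Adap2 held 6 reads in all.

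Just outside the minimum were Etaa1os with 35 reads, Fmr1os with 31, Dhrs13os with 29 and Kank4os with 28. Etaa1os had 7 and 2 reads in EM-plasma cells and 10 and 16 in control cells, Fmr1os 9 and 3 in EM-plasma cells and 13 and 6 in control cells, Dhrs13os 9 and 9 in EM-plasma cells and 2 and 9 in control cells, and Kank4os 6 and 4 in EM-plasma cells and 9 and 9 in control cells. These 4 were not tested. Of their sense genes Dhrs13, a dehydrogenase family gene, was called higher at 13.0 and 13.5 CPM in EM-plasma cells, against 10.4 and 10.7 CPM in control cells (log2 fold change 0.32, adjusted p = 0.0425), a call that ended with DESeq2 (0.142) and whichever library was left out (0.107 to 0.392). Etaa1, a replication stress gene, was at -0.13 (adjusted p = 0.282), Fmr1, the fragile X protein gene, at -0.14 (adjusted p = 0.110) and Kank4 at 0.049 (adjusted p = 0.635). In all 219 symbols of the table end in os with those exclusions, 171 of them under the minimum and 114 with 0 reads.

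Genes of the machinery that ends and degrades such transcripts were also counted. Of 31 tested genes of the nuclear RNA exosome, its targeting complexes and early 3′ end processing 1 was called higher and 0 lower (3.23%), beside 6.21% of all tested genes, and 7 had an unadjusted p below 0.05, beside 2671 of all 13664. Both counts lie near that background, and the median log2 fold change was 0.0045. The called gene was Zfc3h1, a subunit of the complex that brings polyadenylated nuclear RNA to the exosome. Zfc3h1 had 69.7 and 72.7 CPM in EM-plasma cells, against 58.6 and 61.6 CPM in control cells, with no overlap (log2 fold change 0.25, SE 0.058, adjusted p = 0.00906), and leaving out any of the 4 libraries ended its call (adjusted p between 0.0740 and 0.363).

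Opposite-strand symbols that carry a number after os, such as Dlx6os1, are outside the rule for members. The list was narrowed after it was seen that names such as Sos1 matched, and 8 symbols with at least 40 reads remained. Of these 0 were called, beside 6.21% of all tested genes, and with only 8 genes nothing is read from that count. With 1 of the 8 at an unadjusted p below 0.05 and 6 above 0, their median log2 fold change was 0.33. Rapgef3os2, opposite the gene of a cAMP-activated exchange factor, had 273 and 281 reads in EM-plasma cells, against 253 and 203 in control cells (0.33, adjusted p = 0.176). Dlx6os1 had 340 and 311 reads in EM-plasma cells and 307 and 277 in control cells (0.21, adjusted p = 0.391). Neither gene's groups overlapped.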

How the data were processed

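Poly(A) RNA of 4 B16 libraries was measured. The submitters' processing notes name HTSeq, edgeR, TopHat2 2.1.1 and CASAVA, without their roles, and GRCm38 as genome build. Strand setting and annotation release were not given in the sources used here. Deposited by the authors were whole-number read counts per Ensembl gene, with 0 unmapped columns. They also deposited a scaled signal per sample, which equalled the count times 1 constant per library to within 4.96e-08% for genes with at least 100 reads and was used only for that check. Positions, biotypes and merged exon lengths came from GENCODE M21. No symbol was found for 191 rows, with at most 0.0526% of a library's reads.

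Genes passing filterByExpr were fitted in edgeR 4.0.16 (R 4.3.3, limma 3.58.1) with TMM scaling on group alone, by the two-sided quasi-likelihood F test with Benjamini-Hochberg adjustment over all tested genes, called below 0.05. Prior degrees of freedom were 25.5 and the biological coefficient of variation 4.00%. Intervals are 95% and cover counting error and the spread between libraries only. The script was tested on simulated counts. Alternatives were DESeq2 1.42.0, its size factors, no filter, the newer dispersion, a replicate block, each library left out and a minimum of 100 reads.

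Named with full values were called members, the 6 with the highest mean CPM, the 4 with the largest absolute log2 fold change, the 4 on each side of the read minimum, and their sense genes. The members and lists were chosen with earlier results of these data known.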

Additional observations from a re-analysis of the deposited data

How the results depend on the processing

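The calls rest on 2 libraries a group, and depth limits the members more than their sense genes. All genes called numbered 849 as reported, 557 with DESeq2, 14 with no filter on low counts (22906 genes), 1683 with the replicate block and 71 to 547 with a library left out, fewest without control 2. Members called numbered 2 as reported, 1 with DESeq2 (Brip1os), 0 with no filter and 0 to 1 with a library left out. Sense genes called numbered 6 as reported, 3 with DESeq2, 0 with no filter and 0 to 3 with a library left out. With no filter, adjusted p was 0.365 for Brip1os and 0.224 for Zfp335os. With DESeq2's size factors, the newer dispersion, or a minimum of 100 reads the same 2 members were called. The members' median log2 fold change ran from -0.028 to 0.088 with a library left out and was 0.088 without control 1, which moves it past the spread between library pairs. The replicate block called 2 members and 8 sense genes, and with it Zfp335 (adjusted p = 0.0277) and Fmr1 (0.0180) were called. The deviations of EM-plasma 1 and control 1 from their group means had a correlation of 0.078 over the tested genes. With 2 libraries a group, the libraries numbered 2 give the same value. The labels do not say that a number marks a shared batch. Whether the numbers pair the libraries was not settled by this value. Fmr1 was also called without control 1 (adjusted p = 0.0394).

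Over 38 named genes and their alternatives, 267 values kept their direction and their side of the threshold, 50 lost the call, 3 gained it and 16 changed sign. Sign changes were in genes that were not called. The log2 fold change of Slc7a6 was 0.00053 with DESeq2 and 0.00053 with its size factors. With a library left out the range was -1.06 to 0.59 for Adap2os, -0.021 to 0.086 for Cdipt, -0.14 to 0.035 for Cebpz, -0.035 to 0.13 for Man2c1, -0.12 to 0.0078 for Prox2, -0.66 to 0.45 for Prox2os, -0.025 to 0.022 for Slc7a6, -0.039 to 0.013 for Taco1, -0.19 to 1.12 for Taco1os, -0.029 to 0.023 for Wdr83os and -0.11 to 0.027 for Zbtb8os. Fits without a library estimate the variance from fewer libraries, and the cause of these changes was not tested.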

Other observations

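Unnumbered opposite-strand names are a small part of the antisense genes in the annotation. Of 271 tested genes of the antisense biotype 7 were higher and 1 was lower in EM-plasma cells (2.95%), with a median log2 fold change of 0.14 and 173 of 271 above 0. The 25 members of that biotype had a median of -0.013 with 11 above 0, and the other 246 had a median of 0.15 with 162 above 0, 6 called higher and 0 lower. Among the 162 with at least 100 reads the median was 0.10 with 105 above 0. Of 310 tested lincRNA genes 11 were higher and 3 lower (4.52%), with a median of 0.089. The 11733 tested protein-coding genes had a median of -0.0072 and a call rate of 6.57%. No test of a difference between these sets was made. Over all rows, 19493 and 19484 genes had reads in EM-plasma cells, against 19122 and 18954 in control cells. Whether this bears on the medians was not tested.

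The 6 symbols that end in os for another reason held 0 called genes, with 1 at an unadjusted p below 0.05. Mocos, the molybdenum cofactor sulfurase gene, had 11.1 and 9.09 CPM in EM-plasma cells, against 8.69 and 7.66 CPM in control cells (log2 fold change 0.30, adjusted p = 0.133). Uros, a haem synthesis gene, had 9.57 and 8.87 CPM in EM-plasma cells, against 10.8 and 10.2 CPM in control cells (-0.18, adjusted p = 0.354).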
